A study of Mus musculus with 4 samples.

Results

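Slc12a3, Pvalb, Calb1, Slc8a1 and Egf are 5 genes of the distal part of the nephron, where the last fine adjustments of urinary salt, calcium and magnesium are made. They were chosen by gene symbol in the probe annotation of the array, and each was represented by 1 of the 10032 gene probes. The choice followed an earlier look at the diabetes differences of these same arrays, so those differences are given here as a description, without a test. The study read RNA levels in cortex tissue from kidneys of male C57BL/6J mice, with 1 one-colour CodeLink bioarray for each of 4 groups. The DM-KO group consisted of ICAM-1-/- mice, which lack a leukocyte adhesion molecule, given streptozotocin at 200 mg/kg in citrate buffer. ND-KO mice had the same genotype and received citrate buffer only. DM-WT mice were ICAM-1+/+ and received streptozotocin at the same dose, and ND-WT mice were ICAM-1+/+ and received buffer only. Streptozotocin destroys pancreatic beta cells and so produces insulin-deficient diabetes, and only injected mice above a set blood glucose were kept as diabetic. All mice were injected at 8 weeks of age and their kidneys were taken 12 weeks later, at 20 weeks of age. The labels give 5 mice per group but do not say whether the RNA on an array came from 1 mouse or from several. With 1 array per group there is no measure of the spread between mice. The only measured error is technical. The difference between 2 spots of the same bacterial control probe had an SD of 0.18 on the log2 scale, which leaves out hybridisation and animal differences. It was taken within arrays and before the normalisation applied to the genes, so comparisons with it are rough, most of all for dim probes.

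In the distal convoluted tubule, sodium and chloride enter from the urine through the thiazide-sensitive cotransporter encoded by Slc12a3. Calcium that enters the cells of the late distal convoluted and connecting tubule is bound in the cytosol by calbindin (Calb1) and, in the early convoluted segment, parvalbumin (Pvalb), and leaves on the blood side partly through the sodium-calcium exchanger encoded by Slc8a1. Egf encodes the precursor of epidermal growth factor, which the thick ascending limb and distal convoluted tubule make in large amounts and which promotes magnesium reabsorption through its receptor.

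Between 62.8% and 66.2% of gene probes were usable, that is above background and free of a quality mark, on each array, and the median background-subtracted intensity of gene probes lay between 37.7 and 46.3 fluorescence units. The DM-WT array was at the low end of both ranges. Markers of the distal convoluted tubule were present as the tissue label implies, with Slc12a3, Pvalb, Calb1 and the phosphatase inhibitor Ppp1r1a above background on all 4 arrays. All 12 proximal tubule markers with a probe were also above background throughout. Of the 4 podocyte markers with a probe, Nphs1, Podxl and Plce1 were above background on no array and Wt1 on 1. The targeted gene, Icam1, was not analysed here, and genotype is taken from the labels alone.

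The 250 bases before the annotated start of 3 of the genes are shown because Slc12a3 and Pvalb gave higher values in diabetes and Egf lower ones. They are the RefSeq sequences of build GRCm38.p6, read 5′ to 3′ on the strand of the gene, and capitals mark a match to TATAAA. The table holds 1 start for Slc12a3 and 2 for each of Pvalb and Egf, of which the first is shown.
Slc12a3, chr8:94328958-94329207, plus strand: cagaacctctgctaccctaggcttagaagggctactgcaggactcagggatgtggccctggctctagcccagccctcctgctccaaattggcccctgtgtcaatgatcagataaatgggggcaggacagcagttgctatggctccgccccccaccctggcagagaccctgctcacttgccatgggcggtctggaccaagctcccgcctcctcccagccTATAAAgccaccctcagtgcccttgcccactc
Pvalb, chr15:78206401-78206650, minus strand: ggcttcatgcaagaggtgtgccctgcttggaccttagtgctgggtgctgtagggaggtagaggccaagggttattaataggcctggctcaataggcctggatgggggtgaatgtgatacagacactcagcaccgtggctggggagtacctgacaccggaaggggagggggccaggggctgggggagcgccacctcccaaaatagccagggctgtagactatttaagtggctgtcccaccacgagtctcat
Egf, chr3:129755323-129755572, minus strand: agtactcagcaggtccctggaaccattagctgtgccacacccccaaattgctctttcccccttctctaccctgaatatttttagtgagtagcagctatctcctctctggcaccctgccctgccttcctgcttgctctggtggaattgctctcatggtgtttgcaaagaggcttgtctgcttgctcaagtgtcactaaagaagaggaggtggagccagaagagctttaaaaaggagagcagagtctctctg
The GC content was 61.2% for Slc12a3, 58.4% for Pvalb and 50.4% for Egf. Both strands of the promoters of Slc12a3, Pvalb, Slc8a1 and Egf were searched for TATAAA, for AGGTCA (a half-site of nuclear receptors), TGTTCT (a half-site of steroid receptors) and TGANTCA (an AP-1 site). The only match was TATAAA in Slc12a3, at positions -32 to -27 from the start. Of all 32851 promoters in the table, 12.4% held TATAAA, 14.0% AGGTCA, 16.1% TGTTCT and 6.75% TGANTCA on either strand.

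Slc12a3, the salt transporter, was brighter on both arrays from diabetic mice. Its normalised log2 intensity was 9.31 in DM-KO against 8.99 in ND-KO, and 9.48 in DM-WT against 8.95 in ND-WT. The 2 diabetic values lay above the 2 nondiabetic values, with no overlap. How many of all genes separate in this way was not counted, so nothing is read from it, here or for the genes below. The diabetes difference was 0.32 in KO mice, or 1.25-fold, and 0.53 in WT mice, or 1.45-fold. Scaling the arrays by their medians in place of quantiles lowered the WT difference to 0.31. The mean of the KO and WT differences, 0.43, ranked 105th from the top among 5914 genes measured on all 4 arrays. Of those genes, 28.6% were higher in diabetes in both genotypes, so direction alone is common. The levels of DM-WT and DM-KO differed by 0.17, and those of ND-KO and ND-WT by 0.04. Both gaps were below the technical SD, while the gap between DM-KO and ND-KO was above it.

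Pvalb, the cytosolic calcium buffer of the early distal convoluted tubule, had a log2 intensity of 8.53 in DM-KO against 8.17 in ND-KO, and 9.28 in DM-WT against 8.60 in ND-WT. DM-WT stood above the other 3 arrays by at least 0.69, and ND-KO was the lowest. The diabetic and nondiabetic values overlapped across genotypes, because DM-KO lay 0.07 below ND-WT, a gap smaller than the technical SD. Within a genotype the diabetes difference was 0.36 in KO mice, or 1.28-fold, and 0.69 in WT mice, or 1.61-fold. Its mean difference of 0.52 ranked 68th from the top of the 5914 genes. From the lowest to the highest array the level of Pvalb spanned 2.17-fold, against 1.45-fold for Slc12a3.

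Calb1, which encodes the calbindin of the late distal convoluted and connecting tubule, had the highest mean diabetes difference of these genes, Slc8a1 aside. Slc8a1 cannot be ranked, because its KO difference is a lower bound. In the authors' scaling, without an offset, Slc8a1 had at least 0.86 in KO and 1.17 in WT mice, against 0.67 and 0.81 for Calb1. The background-subtracted intensity of Calb1 was 3850.1 in DM-KO against 2324 in ND-KO, and 4702 in DM-WT against 3098 in ND-WT. After normalisation the log2 values were 11.88 in DM-KO, 11.16 in ND-KO, 12.45 in DM-WT and 11.52 in ND-WT. Both diabetic arrays were above both nondiabetic arrays, a separation that was not counted over all genes. Each of the 3 gaps in the order DM-WT, DM-KO, ND-WT, ND-KO, which ran from 0.36 to 0.57, exceeded the technical SD. The diabetes difference was 0.72 in KO mice, or 1.65-fold, and 0.93 in WT mice, or 1.91-fold. Their mean of 0.82 ranked 19th from the top of the 5914 genes, and the 4 arrays spanned 2.45-fold.

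Slc8a1, the sodium-calcium exchanger of the blood side, was the dimmest of these probes on every array. Its spot intensity was 1.63 times the local background in DM-KO, 1.33 times in ND-KO, 1.85 times in DM-WT and 1.42 times in ND-WT, and the ND-KO spot was not above background by the scanner's mark. The log2 intensity was 6.25 in DM-KO against 6.00 in ND-KO, and 6.55 in DM-WT against 6.12 in ND-WT. The diabetic arrays were again the higher ones, but DM-KO lay above ND-WT by 0.13. That is less than the technical SD, which for a dim probe is not on the same scale. Diabetes was accompanied by a level at least 1.19-fold higher in KO mice and by a difference of 0.44, or 1.35-fold, in WT mice. These folds depend on how background is handled: in the authors' scaling, without an offset, the log2 differences were at least 0.86 in KO mice and 1.17 in WT mice, and with an offset of 16 at least 0.49 and 0.76.

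Egf, the growth factor precursor, had the opposite sign. Its log2 intensity was 9.41 in DM-KO against 9.64 in ND-KO, and 9.53 in DM-WT against 9.77 in ND-WT. The diabetic values lay below the nondiabetic values without overlap, but each of the 3 gaps between neighbouring arrays in the order of levels, from 0.12 to 0.13, was within the technical SD. The diabetes difference was -0.23 in KO mice and -0.24 in WT mice, or 1.17-fold and 1.18-fold lower, each larger in size than the technical SD. Median scaling moved the WT value to -0.48, and spot medians moved it to -0.14, within that SD. The mean difference of -0.24 ranked 268th from the bottom of the 5914 genes, and 31.2% of those genes were lower in diabetes in both genotypes.

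**Figure D1:**
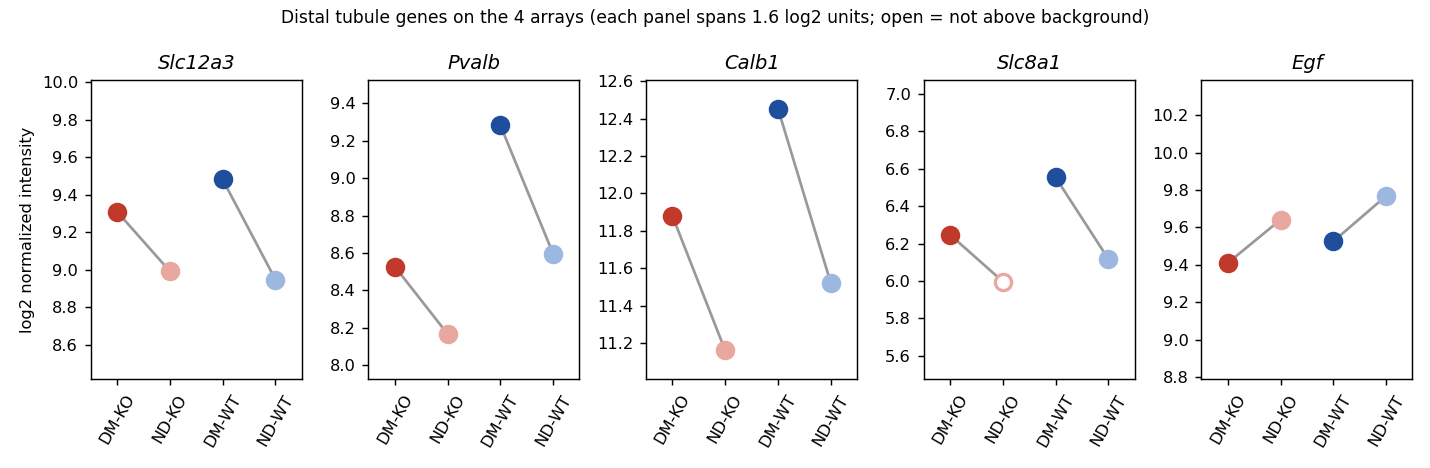
Normalised log2 intensity of each of the 5 genes (y axis) on the DM-KO, ND-KO, DM-WT and ND-WT arrays (x axis), 1 point per array and no error bars because each group has 1 array. The open point for Slc8a1 in ND-KO (6.00) was not above background. Slc12a3, Pvalb, Calb1 and Slc8a1 are higher in diabetes within each genotype, and Egf is lower.

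By the size threshold of 1.5-fold, Calb1 was past it in KO mice, where 34 of 6339 genes (0.536%) were at least that much higher in diabetes and 32 (0.505%) at least that much lower. In WT mice Calb1 and Pvalb were past it, among 106 of 6055 genes (1.75%) higher and 53 (0.875%) lower. Pvalb was no longer past it under median scaling, at a WT difference of 0.51, and Slc12a3 was past it with spot medians, at 0.65. In the authors' scaling Slc8a1 was past it in both genotypes. Median scaling gave 30 higher and 39 lower genes in KO mice, and 69 higher and 124 lower in WT mice. With the authors' scaling the counts were 87 higher and 107 lower in KO mice, and 215 higher and 188 lower in WT mice. Since the diabetes values chose these 5 genes, nothing is read from their share.

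The diabetes difference was smaller in KO than in WT mice for Slc12a3, Pvalb and Calb1. The KO difference minus the WT difference was -0.22 for Slc12a3, -0.33 for Pvalb and -0.21 for Calb1, and 0.01 for Egf. For Slc8a1, whose KO difference is a lower bound, it was at least -0.19, so no order of the genotypes can be given. These values had no test, because a model with an interaction over 4 arrays has no residual degrees of freedom. In the additive genotype fit below they make up the only residual of each gene. Among the 5914 genes, 8.00% differed between genotypes by more than Pvalb, 19.9% by more than Slc12a3 and 20.5% by more than Calb1, against 93.9% for Egf. The genes were chosen with these same KO and WT diabetes differences in view, so nothing is read from the shares. Under median scaling the KO minus WT value was -0.05 for Slc12a3, -0.15 for Pvalb, -0.0039 for Calb1 and 0.16 for Egf.

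**Figure D2:**
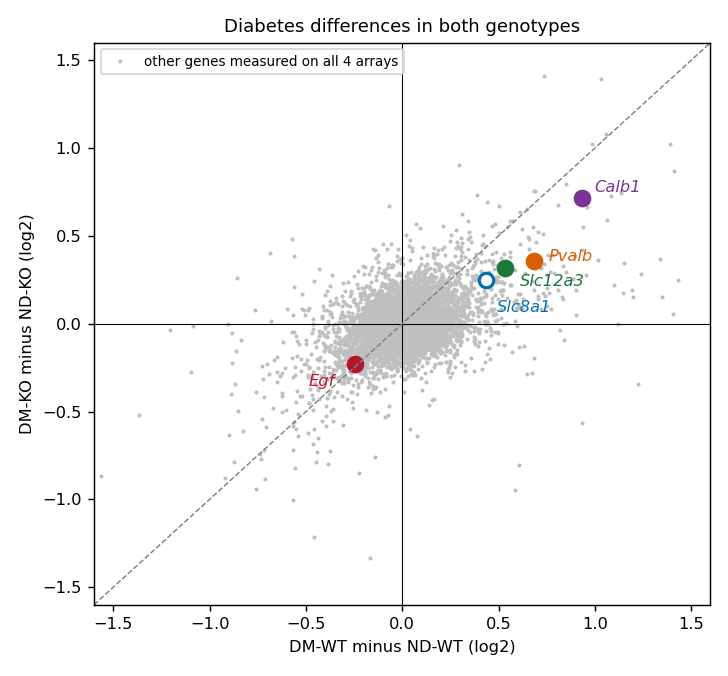
Diabetes difference in KO mice (y axis, log2, DM-KO minus ND-KO) against that in WT mice (x axis, log2, DM-WT minus ND-WT) for genes measured on all 4 arrays (grey, 5902 plotted and 12 outside the axes) and for the 5 genes (coloured). The open symbol is Slc8a1, whose KO value is a lower bound, so that its place relative to the dashed line of equal differences is not known. Slc12a3, Pvalb and Calb1 lie below the line, and Egf lies close to it, at -0.23 in KO and -0.24 in WT mice.

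The position of the probes on the glass was also examined. None of the 5 probes lay among the 500 gene probes at the edge of the array. The usable spots within 3 rows and columns of each probe, between 22 and 36 of them, had median differences from -0.07 to 0.08 over the 4 comparisons.

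The genotype contrast was not used in choosing these genes, but the diabetes differences that were used come from the same 4 arrays. Genotype was tested with an additive limma fit over the 4 arrays, with diabetes as a covariate. Across 6512 genes the fit called 3 (0.0461%), 2 higher and 1 lower in KO mice, and 592 had an unadjusted p below 0.05. None of the 5 genes was called. The log2 difference of Pvalb was -0.76 between DM-KO and DM-WT and -0.43 between ND-KO and ND-WT. Both KO arrays were below both WT arrays for Pvalb, a separation that was not counted over all genes. Its fitted KO minus WT difference was -0.59 ± 0.10 (SE; limma adjusted p = 0.341). For Calb1 the differences were -0.57 in diabetic and -0.36 in nondiabetic mice, and the 2 genotypes overlapped because DM-KO exceeded ND-WT. The fitted difference was -0.47 ± 0.08 (SE; limma adjusted p = 0.342). Over the alternative settings the adjusted p ran from 0.0992 to 0.881 for Pvalb and from 0.134 to 0.908 for Calb1.

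Slc8a1 had log2 differences of -0.31 in diabetic mice and, as a bound, -0.12 in nondiabetic mice, with a fitted value of -0.21 ± 0.08 (SE; limma adjusted p = 0.545). Egf gave -0.12 in diabetic and -0.13 in nondiabetic mice (limma adjusted p = 0.601), and the diabetic value turned to 0.03 under median scaling. Slc12a3 gave -0.17 in diabetic and 0.04 in nondiabetic mice (limma adjusted p = 0.818). Pvalb, Calb1, Slc8a1 and Egf had lower values in KO mice in both states, a direction that 29.5% of the 5914 genes had, while 27.7% were higher in both. By size, Pvalb alone of the 5 passed 1.5-fold between DM-KO and DM-WT after quantile normalisation, where 65 of 6111 genes (1.06%) were lower in KO mice and 47 (0.769%) higher. Median scaling gave 48 lower and 62 higher genes there. In the authors' scaling Calb1, at -0.59, and Slc8a1, at -0.75, passed it as well. Between ND-KO and ND-WT none of the 5 did, against 28 of 6258 genes (0.447%) lower and 11 (0.176%) higher, or 80 lower and 67 higher in the authors' scaling. The values of these arrays also gave the diabetes differences behind the choice of the 5 genes. The size comparisons between genotypes are thus not independent of that choice, and nothing is read from them.

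**Figure D3:**
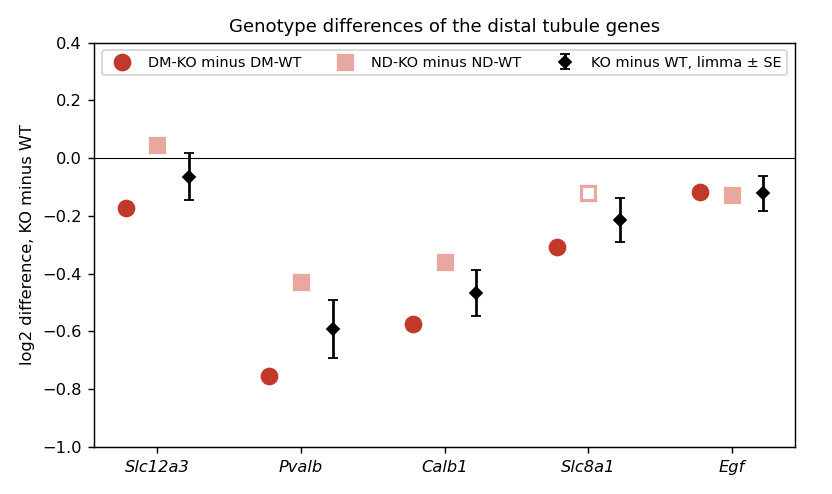
KO minus WT difference of each gene (log2) in diabetic mice, in nondiabetic mice and as fitted by limma with its standard error. Pvalb (-0.59) and Calb1 (-0.47) lie farthest below 0, and no gene passed the adjusted threshold.

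Slc12a3 was set beside a list of genes of salt transport in the distal convoluted tubule, which includes it. Of 20 listed genes 10 had a named probe, all measured on all 4 arrays. Their median difference was 0.05 in KO mice and 0.11 in WT mice, against -0.0058 and 0.00014 over all genes, but the WT median turned to -0.06 under median scaling and both turned negative in the authors' scaling. None differed by 1.5-fold in KO mice and only Sgk1 did in WT mice. Sgk1 encodes a kinase that raises sodium reabsorption downstream of aldosterone. Its log2 intensity was 8.09 in DM-KO, 8.03 in ND-KO, 10.18 in DM-WT and 8.78 in ND-WT. DM-WT was the highest, and ND-WT also lay above both KO arrays, with ND-KO minus ND-WT at -0.74. The diabetes difference of Sgk1 was 0.05 in KO mice and 1.40 in WT mice.

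Stk39, the kinase that activates the cotransporter, had differences of 0.13 in KO and 0.12 in WT mice, and its scaffold partner Cab39 had 0.09 and 0.16. Cul3, part of the ligase that degrades the upstream WNK kinases, had 0.05 and 0.10. The ubiquitin ligase gene Nedd4l had -0.28 in KO and 0.06 in WT mice. The potassium channel gene Kcnj16 had -0.03 and -0.10, the sodium pump subunit gene Atp1b1 -0.10 and -0.04, and Ppp1r1a -0.04 and 0.05. Most of these lay within the technical SD, unlike Slc12a3. Within the cation-chloride cotransporter family, Slc12a2 had -0.07 and -0.14 and Slc12a7 had 0.01 and 0.04, and the other 4 genes with a probe were above background on no array.

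For calcium, 10 of 16 listed genes had a named probe and 8 were measured on all 4 arrays. Besides Calb1 and Pvalb, only Cyp24a1 differed by at least 1.5-fold with diabetes, in WT mice. Cyp24a1 encodes the enzyme that inactivates vitamin D. Its log2 intensity was 7.55 in DM-KO against 7.21 in ND-KO, and 7.53 in DM-WT against 6.80 in ND-WT. The differences were 0.34 in KO and 0.73 in WT mice. The vitamin D receptor gene Vdr had -0.03 in KO and 0.00 in WT mice, and Cyp27b1, which encodes the activating enzyme, had -0.07 and -0.12. The parathyroid hormone receptor gene Pth1r had 0.01 and -0.11, the calcium-sensing receptor gene Casr -0.08 and -0.07, and Fgfr1 -0.11 and -0.04. Trpv6, an entry channel for calcium, was above background on no array. Among other calcium carriers Slc24a2 had -0.18 and -0.03 and the pump gene Atp2a2 had -0.14 and -0.15.

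Of 16 genes of magnesium handling, 12 had a named probe and 9 were measured on all 4 arrays, and none differed by 1.5-fold with diabetes in either genotype. Their median, Egf included, was -0.02 in KO and -0.01 in WT mice, and the WT median was -0.16 under median scaling, with 8 of 9 genes below 0. Egfr, which encodes the receptor for epidermal growth factor, had 0.04 in KO and -0.17 in WT mice. The channel kinase gene Trpm7 had 0.17 and 0.03, Cnnm2 -0.02 and 0.15, and Cnnm4 -0.02 and -0.01. Pcbd1 had 0.03 and 0.09. The tight junction genes Cldn16 and Cldn10 had -0.02 and 0.18 in KO mice, and 0.11 and -0.12 in WT mice. Slc41a3 was above background on 1 array.

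The EGF family had 9 of 15 genes with a named probe, of which 6 were measured on all 4 arrays, and none differed by 1.5-fold with diabetes. The ligand genes Tgfa, Hbegf and Ereg had differences of 0.10, -0.10 and 0.03 in KO mice, and of 0.12, 0.19 and 0.03 in WT mice. The neuregulin gene Nrg3 had -0.04 in KO and 0.22 in WT mice. Nrg4 had -0.39 in KO mice and, with the DM-WT spot not above background, at most -0.35 in WT mice, both more negative than the values of Egf. Areg and Epgn were above background on no array. In the limma fit for genotype, none of the 89 genes tested over all the lists was called, and 22 had an unadjusted p below 0.05, Pvalb, Calb1 and Slc8a1 among them, beside 592 of all 6512 genes.

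**Figure D4:**
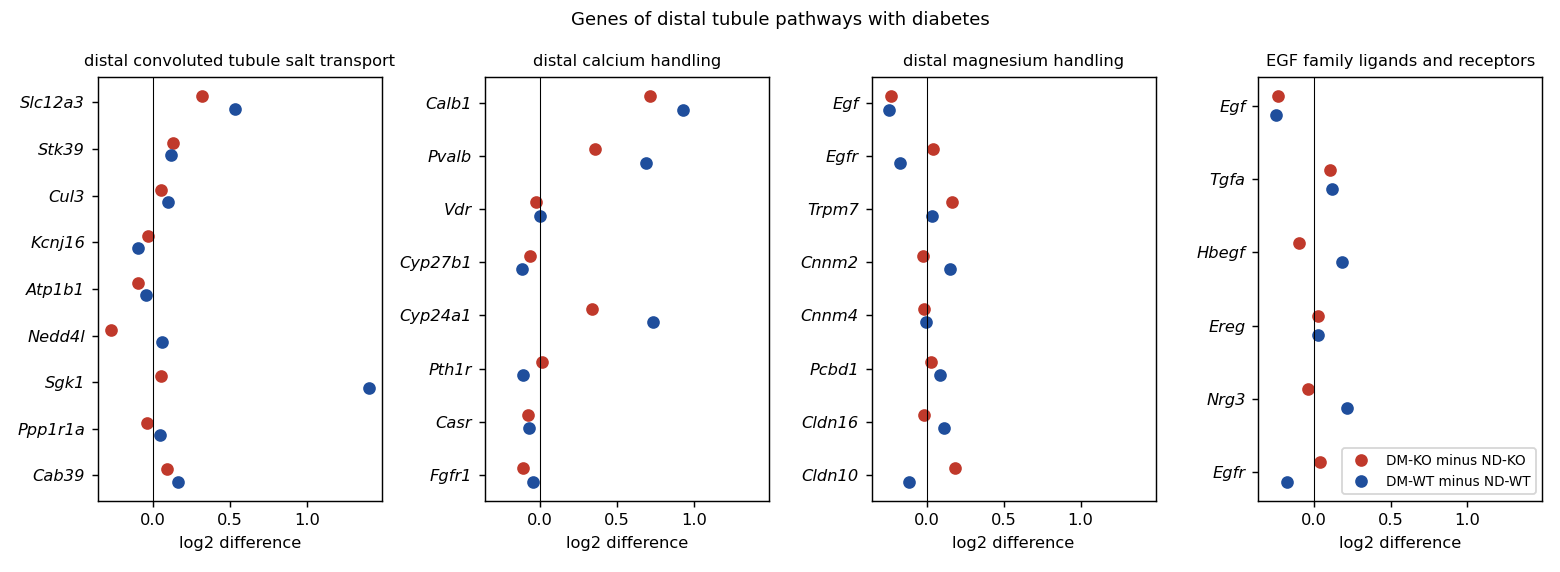
Diabetes difference (x axis, log2) of genes of salt transport, calcium, magnesium and EGF signalling that are named in the text and were measured on all 4 arrays (y axis), with KO and WT mice as separate points. Calb1, Pvalb and, in WT mice, Sgk1 (1.40) and Cyp24a1 (0.73) lie farthest to the right, and Egf lies left of 0 in both genotypes.

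The renal cortex holds many cell types, and in whole tissue fewer cells of a type and less RNA per cell cannot be told apart. Markers of neighbouring segments are therefore given beside the values above, and their part in the results was not tested. The 7 thick ascending limb markers with a probe, Egf among them, had a median diabetes difference of 0.07 in KO and 0.11 in WT mice. The WT median turned to -0.05 under median scaling, and the authors' scaling, which left 4 of the 7, gave -0.17 in KO and -0.04 in WT mice. Umod, which encodes the most abundant protein of that segment, had -0.44 in KO and 0.16 in WT mice, and the potassium channel gene Kcnj1 had 0.08 and 0.12. The summed normalised intensity of this list, Egf included, was 5562 in DM-KO, 6419.9 in ND-KO, 5919.8 in DM-WT and 5491 in ND-WT. This sum and those below are weighted to the brightest genes of a list, here Umod, and do not follow the list as a whole.

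Connecting tubule and principal cell markers, of which 10 of 11 had a probe, had medians of 0.15 in KO and 0.11 in WT mice, the second of which was 0.014 under median scaling. The sodium channel subunit genes Scnn1a, Scnn1b and Scnn1g had 0.19, 0.15 and 0.15 in KO mice, and 0.20, 0.11 and 0.32 in WT mice. The water channel gene Aqp2 had 0.91 in KO and 0.30 in WT mice. Calb1 is also made in the connecting tubule, and its difference was below that of Aqp2 in KO mice and above that of Aqp2 in WT mice. The summed intensity of the 9 genes of this list measured on all 4 arrays was 4684 in DM-KO, 3653 in ND-KO, 4778 in DM-WT and 4283 in ND-WT. It was higher in diabetes within each genotype, but Scnn1a and Aqp2 were by far its brightest genes. The 7 intercalated cell markers had medians of 0.11 in KO and 0.07 in WT mice, the WT median turning to -0.04 under median scaling. Their summed intensity was 2653 in DM-KO, 2211 in ND-KO, 2392 in DM-WT and 2624 in ND-WT. The brightest gene of that sum was Car2, with differences of 0.38 in KO and -0.56 in WT mice.

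Proximal tubule markers, which report the bulk of the cortex, had a median of -0.14 in each genotype, and 9 of 12 were lower in diabetes in both. The medians were -0.22 in KO and -0.37 in WT mice under median scaling, and -0.26 and -0.30 in the authors' scaling. The phosphate transporter gene Slc34a1 had -0.23 in KO and -0.34 in WT mice. The summed intensity was 20798 in DM-KO, 23413 in ND-KO, 23724 in DM-WT and 25317 in ND-WT. Macrophage markers had a median of 0.36 in KO and 0.84 in WT mice, and 6 of 6 were higher in both. C1qa, which encodes a complement subunit made by tissue macrophages, had 0.39 and 0.90. Their summed intensity was 1263 in DM-KO, 984 in ND-KO, 1628 in DM-WT and 936 in ND-WT. DM-WT was the highest, as it was for Slc12a3, Pvalb, Calb1 and Slc8a1 but not for Egf. The 5 measured endothelial markers had medians of -0.07 in KO and 0.07 in WT mice, the WT median turning to -0.03 under median scaling.

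Parvalbumin is abundant in fast skeletal muscle as well. Of 11 muscle markers with a probe, 7 were above background on no array, among them the defining genes Acta1, Ckm and Tnnt3. Tnni2 was above background on all 4 arrays, Mylpf on 3, and Atp2a1 and Pygm on 1 each. The log2 intensity of Tnni2 was 6.55 in DM-KO, 6.55 in ND-KO, 6.34 in DM-WT and 6.25 in ND-WT. That of Mylpf was 6.07 in DM-KO, 6.17 in ND-KO and 6.11 in ND-WT, with the DM-WT spot not above background. The part of muscle RNA in the Pvalb values was not tested. Of the 5 adipocyte markers with a probe, Adipoq and Cfd were above background on the ND-KO array and on none of the other 3. Lpl and Fabp4 were above background on all 4 arrays, and Retn on none. Lpl was highest in ND-KO, at 11.19, and Fabp4 in DM-WT, at 10.26 against 9.71 in ND-KO.

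**Figure D5:**
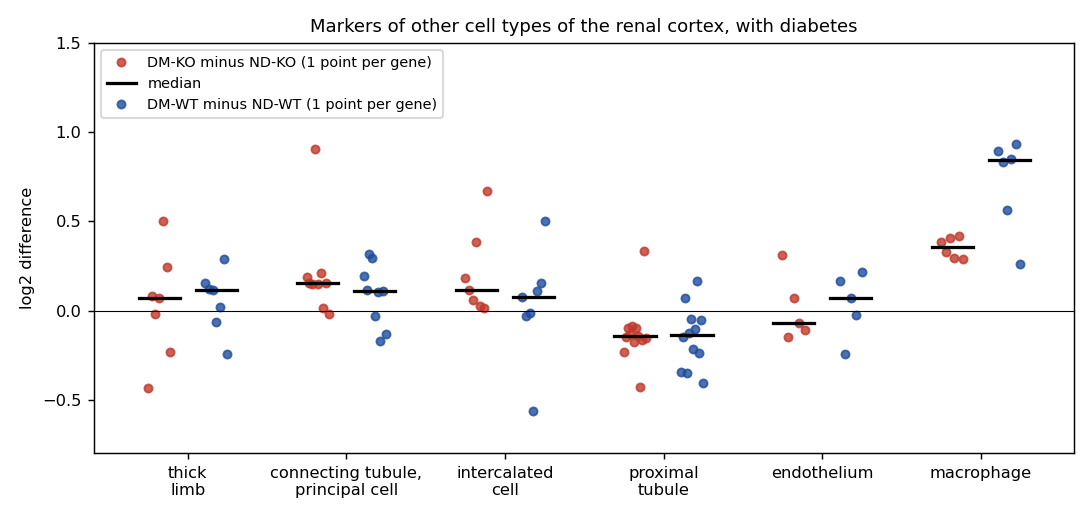
Diabetes difference (y axis, log2) of marker genes of 6 other cell types of the cortex (x axis), 1 point per gene, with KO mice left of WT mice and the bar at the list's median. The thick limb markers include Egf. Macrophage markers have medians of 0.36 in KO and 0.84 in WT mice, and proximal tubule markers -0.14 in each.

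The genes with the most similar pattern were found by the distance between mean-centred log2 profiles over the 4 arrays, among 5442 named genes measured on all 4. For Slc12a3 these were Krt18 (distance 0.0596), Ckmt1 (0.0635) and Rpl38 (0.0641). For Pvalb they were Ccn2 (0.166), Apoe (0.170) and Pdk4 (0.176), and for Calb1 they were Serpinb6a (0.263), Tubb2b (0.279) and Clu (0.311). Slc8a1 was closest to Mif (0.0376), and Egf to Zmynd10 (0.0196) and Fbxw4 (0.0197). Among the 5 genes themselves the closest pair was Slc12a3 and Slc8a1, at 0.172, followed by Pvalb and Calb1, at 0.331, and the farthest was Calb1 and Egf, at 1.12. Such distances depend on the size of differences, which the offset shrinks for Slc8a1, and they include its ND-KO spot, which was not above background. By Pearson correlation over the 4 arrays, Slc8a1 was closer to Calb1, at 0.993, than to Slc12a3, at 0.922. With 4 arrays such distances and correlations describe these arrays only.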

How the data were processed

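Total RNA from renal cortex was biotin-labelled and hybridised to 1 CodeLink bioarray per group, then imaged on an Axon GenePix instrument; spots were quantified in the CodeLink software, per the labels. Scanner tables as deposited hold spot mean and median intensity and local background median intensity on a linear scale, unsubtracted, with a quality mark for each spot, per the file headers. The deposited value table holds intensity too: it equalled spot mean minus background divided by 1 constant per array (46.9 for DM-KO, 45.0 for ND-KO, 38.1 for DM-WT and 43.9 for ND-WT), with column medians of 0.930, 0.929, 0.930 and 0.926. How the authors chose the constants is not given in the sources used here.

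The log2 values were computed from the deposited intensities. Background was removed from all 10752 spots with the normexp method (offset 50) of limma 3.58.1 under R 4.3.3, spots marked poor were set to missing, control spots were left out, and the arrays were quantile-normalised. The offset shrinks folds of dim probes, and the technical SD was computed without it and before normalisation. Of 10032 gene probes, 8923 were named from the platform annotation, 285 from an accession, 1 had several names and 823 none. Several probes of 1 gene were averaged for 129 of 9076 genes, none of the 5 among them. A spot marked empty had only a bound, set at the lowest usable value of its array or at its own value, whichever was higher.

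Genotype was tested with limma over genes measured on at least 2 arrays, with 1 residual degree of freedom, moderated across genes and adjusted by Benjamini-Hochberg at 0.05. The step was tested on simulated data. That residual is each gene's departure from additive effects of genotype and diabetes, so it holds any interaction and the error of the arrays together. The SE and p-values rest on this departure over 4 arrays and do not measure the spread between mice.

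The genes and lists were chosen with earlier results of these data known. Genes named were the 5, each measured gene of the lists on salt, calcium, magnesium and the EGF family, the first 4 measured of each other list, and the 3 nearest profiles; some of these genes are not reported here. Genes that define the muscle, podocyte or adipocyte lists, or that were at background, are named besides. Alternatives were median scaling, the authors' scaling, an offset of 16, no background correction, edge spots left out, no filter, a 2-fold threshold, an intensity trend, no diabetes covariate and, chosen after seeing the data, spot medians.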

Additional observations from a re-analysis of the deposited data

Results flagged for a closer look

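Car2, which encodes the cytosolic carbonic anhydrase of intercalated and principal cells, differed with diabetes in opposite directions in the genotypes. Its log2 intensity was 10.21 in DM-KO against 9.83 in ND-KO, and 9.64 in DM-WT against 10.21 in ND-WT. The diabetes difference was 0.38 in KO mice and -0.56 in WT mice, each larger than the technical SD, and the KO minus WT difference was 0.95. It rests on 1 array per group and the difference between genotypes was not tested.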

How the results depend on the processing

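No paired analysis was possible because each group has 1 array, whose replicate number only names it. Leaving out an array would leave the additive model no residual degrees of freedom. Of 220 recomputed values of the 5 genes, 207 stayed within the technical SD of the reported value or, for limma, kept their sign and side of the threshold. Among them Egf changed sign in DM-KO minus DM-WT (0.03 under median scaling) and in the KO minus WT difference between diabetes effects (-0.05 with spot medians). Part of the 207 had no room to change. Leaving out the filter returned the same differences for the 5 genes. The intensity trend and leaving out the diabetes covariate keep the fitted genotype differences by design. The count of 207 is therefore not a measure of robustness. In the 13 values outside it the cause was not tested. Median scaling gave a DM-WT minus ND-WT difference of 0.31 for Slc12a3, 0.69 for Calb1 and -0.48 for Egf, a KO minus WT difference between diabetes effects of -0.0039 for Calb1, and a genotype effect of 4.84e-05 for Slc12a3, against -0.06 (limma adjusted p = 1.00). The authors' scaling gave for Slc8a1 at least 0.86 in KO and 1.17 in WT mice with diabetes, and -0.75 in diabetic and at most -0.43 in nondiabetic mice for genotype. The offset of 16 gave for Slc8a1 at least 0.49 in KO and 0.76 in WT mice, and -0.51 for genotype in diabetic mice. Spot medians gave -0.45 for the KO minus WT difference of Slc12a3. Dim probes such as Slc8a1 are limited by background.

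Counts of genes are given as higher and lower, in the order DM-KO over ND-KO, DM-WT over ND-WT, DM-KO over DM-WT and ND-KO over ND-WT. At 1.5-fold they were 34 and 32, 106 and 53, 47 and 65, and 11 and 28. At 2-fold they were 9 and 3, 27 and 10, 7 and 19, and 3 and 3. In the authors' scaling they were 87 and 107, 215 and 188, 108 and 159, and 67 and 80. With the offset of 16 they were 61 and 54, 171 and 93, 74 and 112, and 26 and 52. Median scaling gave 69 and 124 for DM-WT over ND-WT, and 62 and 48 for DM-KO over DM-WT. Without the filter 90 were lower in DM-WT than ND-WT, 93 higher in DM-KO than DM-WT, and 18 higher in ND-KO than ND-WT. The genotype fit called 3 genes, against 14 with median scaling, 12 without edge spots, 1 with the offset of 16 and, in the authors' scaling, 0 by limma, where 517 genes had an unadjusted p below 0.05.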
